A study of Mus musculus with 4 samples.

Results

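The TRAV13 family is the group of mouse T-cell receptor alpha V segments also called V alpha 10. Members were all productive TRA chains of called cells whose V name begins with TRAV13-, TRAV13D- or TRAV13N- and holds no DV. They numbered 870 chains in 853 of 13345 called T cells (6.39%) and 588 of 8342 distinct TRA rearrangements (7.05%). A distinct rearrangement is 1 combination of V segment, J segment and CDR3 nucleotides, counted once per library however many cells carried it. TRAV13-4-DV7, which the delta chain shares, was left out by this rule.

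The cells came from pancreatic islets of NOD mice (labelled WT), an inbred strain prone to autoimmune diabetes, and of Tet2KO NOD mice (labelled KO), which lack Tet2, an enzyme that oxidises methylated cytosine in DNA. The Tet2-/- allele came from a B6 background and was backcrossed to NOD for over 14 generations, with NOD females as the partners in that cross. Each library was 1 pool of islets from 4 to 6 mice, and there were 2 libraries of each genotype (NOD 1 and 2, Tet2KO NOD 1 and 2). The islets are dated 10 to 13 weeks, by age in the design text but from an event written BTM in the protocol, which also mentions bone marrow donors, so age and any transplant were not settled here. No drug was named, the deletion is not described as limited to a cell type, and the mouse of each cell within a pool was not used here.

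Reads in the 4 contig tables ran from 85137263 to 220516119, called cells from 1664 to 6835 and distinct TRA rearrangements from 1048 to 4154. Members had a median of 5 to 7 UMIs (unique molecular identifiers) per chain and other TRA chains 5 to 6. Cell barcodes shared by 2 libraries numbered 4 to 30 per pair of libraries, and in 0 of them was the same TRAV13 chain found on both sides. Values for the 4 libraries are always listed with NOD 1 and NOD 2 first and Tet2KO NOD 1 and 2 after them.

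A T-cell receptor alpha chain is made when 1 V segment is joined to 1 J segment, with bases trimmed and added at the joint. The V segment encodes CDR1 and CDR2, the loops that mostly meet the MHC molecule, and the joint encodes CDR3, which mostly meets the peptide. V-to-J joining can repeat on 1 allele, moving outward to V segments farther upstream and J segments farther downstream. The J segments are numbered from the downstream end, so high TRAJ numbers lie nearest the V segments. The mouse TRAV locus carries large repeated blocks, and the letters D and N name the copies of a segment in the duplicated blocks.

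The V sequences read from the contigs showed that the segment names did not map one to one onto the sequences. Among the 588 rearrangements, 572 carried 1 of 7 recurrent sequences from framework 1 to the end of framework 3, each in 10 or more rearrangements. Each of the 7 was found in all 4 libraries. The stretch from 15 bases before CDR1 to 15 bases after CDR2 is shown for 4 of them, because it holds CDR1, which differs among these 4. CDR1 and then CDR2, which is the same in the 4, are in capitals as the deposited contigs delimit them.
TRAV13-1 form A: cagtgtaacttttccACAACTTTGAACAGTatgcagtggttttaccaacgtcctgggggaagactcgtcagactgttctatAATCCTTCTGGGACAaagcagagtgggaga
TRAV13-1 form B: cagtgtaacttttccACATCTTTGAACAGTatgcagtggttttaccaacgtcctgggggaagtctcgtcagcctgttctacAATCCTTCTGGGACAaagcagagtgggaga
TRAV13-2 form A: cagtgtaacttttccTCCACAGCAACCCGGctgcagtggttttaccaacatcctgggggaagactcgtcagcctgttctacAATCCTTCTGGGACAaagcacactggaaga
TRAV13N-4: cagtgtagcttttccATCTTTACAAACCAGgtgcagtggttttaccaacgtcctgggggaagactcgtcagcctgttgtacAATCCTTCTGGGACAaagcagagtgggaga

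The name TRAV13-1 covered 2 forms. Form A was carried by 235 rearrangements and form B by 120, and they differed at 14 of 258 bases, with CDR1 TTLNS in form A and TSLNS in form B. Form B was 3 bases from the GRCm38 (C57BL/6J) TRAV13-1 sequence. Form A was 13 bases from its closest matches, TRAV13-1 and TRAV13D-1. The name TRAV13-2 also covered 2 forms, A in 93 and B in 32 rearrangements, which shared CDR1 STATR and CDR2 NPSGT and differed at a single base, C256T (form A first, counted from the first base of framework 1). TRAV13N-2 (58 rearrangements, CDR1 STATE) was 15 bases from its closest GRCm38 matches, TRAV13D-2 and TRAV13N-2. It was 16 bases from the next segment, TRAV13-4-DV7, which the rule leaves out. TRAV13N-3 (19) was 5 bases from both GRCm38 TRAV13-3 and TRAV13N-3. TRAV13N-4 (15, CDR1 IFTNQ) was 1 base from GRCm38 TRAV13N-4. Among other TRAV names of at least 20 rearrangements, 15 of 57 had more than 1 recurrent form. Of the rearrangements outside the forms, 2 named TRAV13N-2 and 1 named TRAV13N-4 matched GRCm38 TRAV13-5 exactly. Segment names below are those deposited, and D and N copies are uncertain.

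In GRCm38 the plain segments lie downstream of the D and N copies, nearer the J cluster. TRAV13-1 is at chr14:53545014-53545525 and TRAV13-2 at chr14:53634888-53635399, both on the plus strand of the reference annotation and annotated as V gene segments. TRAV13N-2 is at chr14:53253792-53254317, TRAV13N-3 at chr14:53337122-53337639, TRAV13N-4 at chr14:53362368-53364106 and TRAV13D-3 at chr14:53032902-53033419. The 60 annotated TRAJ segments span chr14:54155005-54218842. These positions are those of C57BL/6J, and the arrangement of the NOD locus was not analysed here.

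TRAV13-1 was the leading member in every library. It made up 4.43%, 4.39%, 3.82% and 4.23% of distinct TRA rearrangements in the 4 libraries (184, 88, 40 and 48 rearrangements). Means were 4.02% ± 0.289 in Tet2KO NOD and 4.41% ± 0.0270 in NOD (SD, n = 2 each). The quasi-likelihood test of edgeR gave a log2 fold change of -0.13 (SE 0.15) and an adjusted p of 0.990. TRAV13-2 made up 1.44%, 1.80%, 1.91% and 0.880% (log2 fold change -0.19, SE 0.35, adjusted p = 0.990 by the same edgeR test). TRAV13N-2 made up 0.867%, 0.449%, 0.954% and 0.528% (log2 fold change 0.02, SE 0.48, adjusted p = 0.990 by edgeR). These 3 members passed the filter of 10 rearrangements in 2 libraries. Over the 128 V and J segments tested, 0 were called at an adjusted p under 0.05 (0%), with 4 at an unadjusted p under 0.05 by edgeR and 0 by DESeq2.

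**Figure D1:**
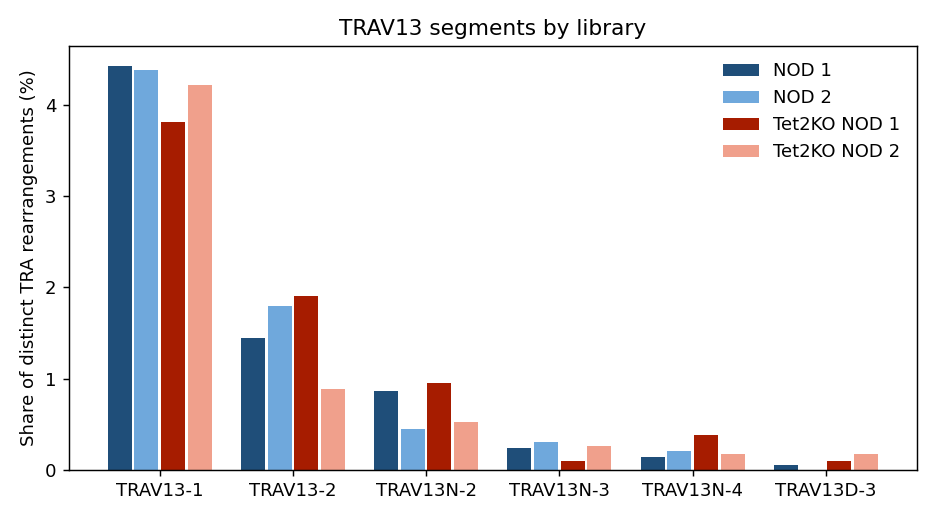
Share of distinct TRA rearrangements (percent, vertical axis) for each TRAV13 segment, with 1 bar per library. TRAV13-1 was the leading member in all 4 libraries, between 3.82% and 4.43%, and TRAV13-2 ranged from 0.880% to 1.91%.

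The remaining members were rare. TRAV13N-3 was found in 10, 6, 1 and 3 rearrangements of the 4 libraries, TRAV13N-4 in 6, 4, 4 and 2, and TRAV13D-3 in 2, 0, 1 and 2. The 0 in NOD 2 allows a share of up to 0.150% of its rearrangements, for counting error only, and TRAV13D-3 rested on 5 rearrangements in all. TRAV13N-3 counted 68 cells for 20 rearrangements, because of an expanded clone in NOD 1 described further on. Together the members made up 7.17% and 7.14% of NOD rearrangements (Wilson 95% intervals 6.43% to 7.999% and 6.09% to 8.35%) and 7.25% and 6.25% of Tet2KO NOD rearrangements (5.83% to 8.98% and 4.98% to 7.81%). The Tet2KO NOD mean was 0.40 percentage points lower, which was smaller than the spread between the Tet2KO NOD pools (n = 2 per genotype, exact two-sided permutation p = 1, smallest possible 0.333). Without Tet2KO NOD 2 the difference was 0.0971 points the other way. By number of rearrangements the family ranked 6 of 21 TRAV families.

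TRAV13 chains were joined to 42 of the 43 TRAJ segments found with any TRAV. The 6 most used TRAJ by mean share were TRAJ40, TRAJ57, TRAJ42, TRAJ26, TRAJ31 and TRAJ49. TRAJ40 made up 5.70%, 5.59%, 7.89% and 5.63% of TRAV13 rearrangements in the 4 libraries, against 3.92%, 3.82%, 4.53% and 5.45% of other TRA. TRAJ57 made up 3.69%, 6.29%, 3.95% and 8.45%, against 2.83%, 3.60%, 2.37% and 3.10%. For both, the family value was the higher one in 4 of 4 libraries. TRAJ42 made up 3.02%, 3.50%, 7.89% and 7.04%, against 2.57%, 3.33%, 3.09% and 3.47%, and was also higher in 4 of 4 libraries. TRAJ26, TRAJ31 and TRAJ49 averaged 4.63%, 4.62% and 4.45% of the family, against 3.48%, 4.09% and 4.38% of other TRA. They were higher in the family in 4, 3 and 2 of the 4 libraries.

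No TRAJ passed the test of the family against other TRAV within libraries. Of 39 TRAJ tested, 0 were called (0%), with 7 at an unadjusted p under 0.05 by edgeR and 2 by DESeq2. Named after their values were seen, the TRAJ with the smallest p were TRAJ24 (log2 fold change 1.64, SE 0.42, adjusted p = 0.146 by edgeR) on the higher side and TRAJ56 (-1.58, SE 0.47, adjusted p = 0.146) on the lower side. TRAJ45 followed on the lower side, lower in 4 of 4 libraries (-0.96, adjusted p = 0.146 by edgeR). TRAJ24 rested on 6, 4, 1 and 2 TRAV13 rearrangements and was higher in 3 of 4 libraries. Without Tet2KO NOD 1 it was the 1 TRAJ that passed (log2 fold change 1.93, adjusted p = 0.0448 by edgeR). TRAJ56 was found in 3, 2, 0 and 0 TRAV13 rearrangements, against 1.85% to 3.57% of other TRA. The difference between family and rest did not depend detectably on genotype: 0 of 39 interaction terms passed (smallest adjusted p = 0.915 by edgeR, 0 at an unadjusted p under 0.05).

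**Figure D2:**
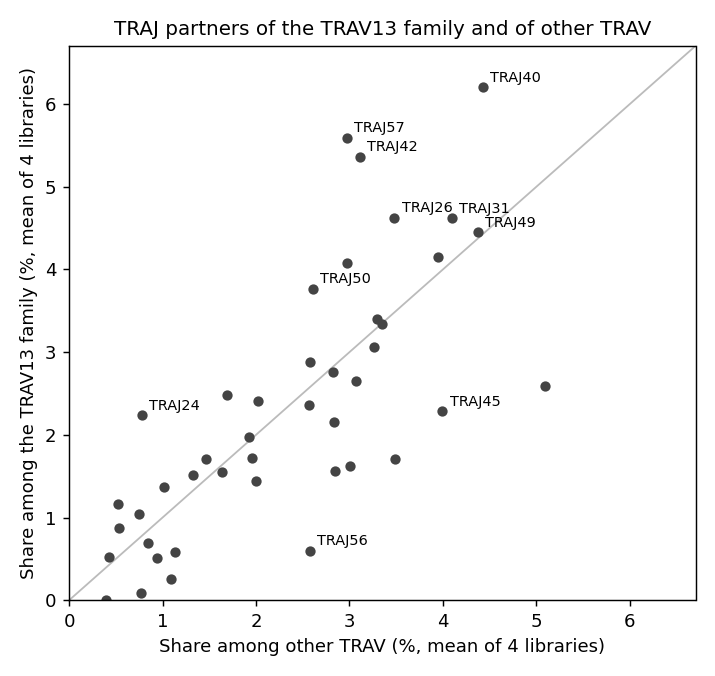
Each point is a TRAJ segment, with its share among other TRAV rearrangements (percent, horizontal axis) and among TRAV13 rearrangements (percent, vertical axis), both as the mean of 4 libraries. The grey line marks equal shares, and TRAJ40 at 6.21% and TRAJ57 at 5.60% of the family lie above it while TRAJ56 at 0.601% lies below it.

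Within the family, TRAJ42 had the smallest p between genotypes. The log2 fold change was 1.22 (SE 0.39, unadjusted p = 0.0391, adjusted p = 0.430 by edgeR), on 9, 5, 6 and 5 rearrangements. TRAJ34 (0.76, SE 0.61) and TRAJ57 (0.43, SE 0.49) followed on the higher side, and TRAJ27 (-0.97, SE 0.65), TRAJ49 (-0.35, SE 0.51) and TRAJ50 (-0.26, SE 0.51) on the lower side, all with adjusted p = 0.822 by edgeR. Of 11 TRAJ tested, 0 were called (0%), with 1 at an unadjusted p under 0.05 by edgeR and 0 by DESeq2.

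Among other TRAV families with at least 100 rearrangements, TRAV8 and TRAV16 had TRAJ use most like that of the TRAV13 family. Spearman's rho over 43 TRAJ, each as the mean of 4 libraries, was 0.81 for TRAV8 and 0.75 for TRAV16. The points share their libraries, so these values only describe likeness.

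The coding forms were described by the part of the J cluster they were joined to, a contrast chosen after the values were seen. TRAJ40 to TRAJ58, the J segments nearest the V segments, made up 42.6%, 38.5%, 47.4% and 45.1% of all TRAV13 rearrangements in the 4 libraries, against 40.2%, 41.8%, 40.2% and 40.6% of other TRA. The family as a whole was therefore higher in 3 of 4 libraries and lower in NOD 2. Pooled over libraries, the share was 62.1% for TRAV13N-2, 54.8% for TRAV13-2 form A, 52.6% for TRAV13N-3, 40% for TRAV13-1 form B, 37.9% for TRAV13-1 form A, 25.0% for TRAV13-2 form B and 0 for TRAV13N-4. The 2 TRAV13-1 forms, which hold most rearrangements, had no common order: form A had 33.1%, 37.7%, 42.3% and 51.4% in the 4 libraries and form B 41.7%, 36.4%, 42.9% and 38.5%.

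The 2 TRAV13-2 forms, a single base apart before CDR3, showed the contrast within 1 name. Form A had 52.1%, 52.2%, 68.8% and 50.0% upstream TRAJ in the 4 libraries, on 48, 23, 16 and 6 rearrangements. Form B had 33.3%, 23.1%, 33.3% and 0 on 12, 13, 3 and 4 rearrangements. Form A was higher in 4 of 4 libraries, by 33.3 ± 13.1 percentage points (mean ± SD of the within-library differences, n = 4). The pair and the TRAJ range were picked for this difference, so it is given with no test, and the widest gap, in Tet2KO NOD 2, rests on 6 and 4 rearrangements. The 2 forms also differed in how CDR3 began, a stretch that the V segment largely encodes. The most common base at each of the first 12 CDR3 positions, taken position by position, is shown with the third codon in capitals.
TRAV13-2 form A: tgtgctATGgaa
TRAV13-2 form B: tgtgctATAgat
GRCm38 TRAV13-2 germline end: tgtgctATAgatc
CDR3 began with CAM in 67.7% of form A and 0 of 32 form B rearrangements, and with CAI in 14.0% and 81.25%. TRAV13N-4 lay at the opposite end: 0 of 15 rearrangements used TRAJ40 to TRAJ58, which allows a share of up to 20% for counting error, and 60.0% used TRAJ2 to TRAJ20. Its rearrangements were spread over libraries as 5, 4, 4 and 2, and none of the 4 libraries held an upstream TRAJ with this form.

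**Figure D3:**
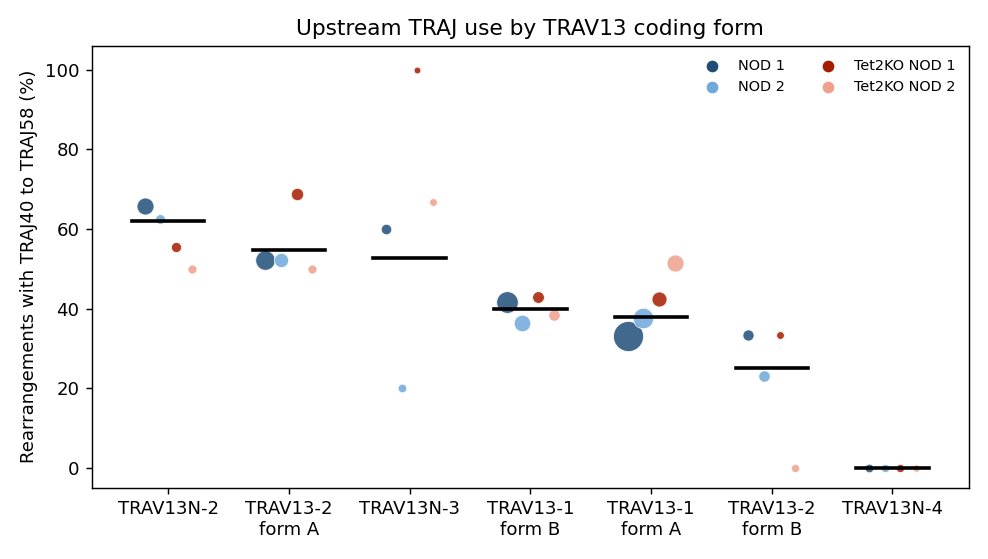
Share of rearrangements with TRAJ40 to TRAJ58 (percent, vertical axis) for the 7 recurrent TRAV13 sequences. Points are libraries, with area growing with the number of rearrangements, and black bars give the pooled share, which falls from 62.1% for TRAV13N-2 to 0 for TRAV13N-4.

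CDR3 alpha was shorter in TRAV13 chains than in other TRA chains in every library. The mean length was 13.17, 13.24, 13.22 and 13.00 amino acids in the 4 libraries, against 13.65, 13.70, 13.71 and 13.70. The difference was -0.53 ± 0.116 amino acids (mean ± SD over 4 libraries, exact two-sided sign-flip permutation p = 0.125, the smallest possible), and it was negative in 4 of 4 libraries. CDR3 of 15 or more residues made up 13.4%, 16.1%, 11.8% and 7.04% of TRAV13 rearrangements and 24.2% to 26.4% of the others. Among 14 TRAV families of at least 100 rearrangements, TRAV13 ranked 12 by mean length, longest first.

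The bases matching the J segment were close in number between the family and the others, while those before them were fewer in the family. Bases matching the germline J segment numbered 25.3, 25.6, 26.2 and 25.2 per TRAV13 rearrangement and 25.2, 25.4, 25.2 and 25.3 in the others. The bases before them numbered 14.2, 14.1, 13.5 and 13.8 in the family and 15.7, 15.8, 15.9 and 15.8 in the others. In GRCm38 the V segments of the family end with 13 bases of CDR3, against a mean of 13.7 to 13.9 for the V segments used by the others. The GRCm38 TRAV13-1 ends in tgtgctTTGgaac, with leucine in the third codon shown in capitals. The most common base at each position gave tgtgctATGgaa, with methionine, for both TRAV13-1 forms. GRCm38 TRAV13D-3, TRAV13N-3 and TRAV13N-4 also end in ATG at this codon, and whether the chains come from another allele or another copy was not tested. CAM began 67.1%, 65.7%, 63.2% and 67.6% of TRAV13 CDR3 in the 4 libraries and 8.76% of the others.

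**Figure D4:**
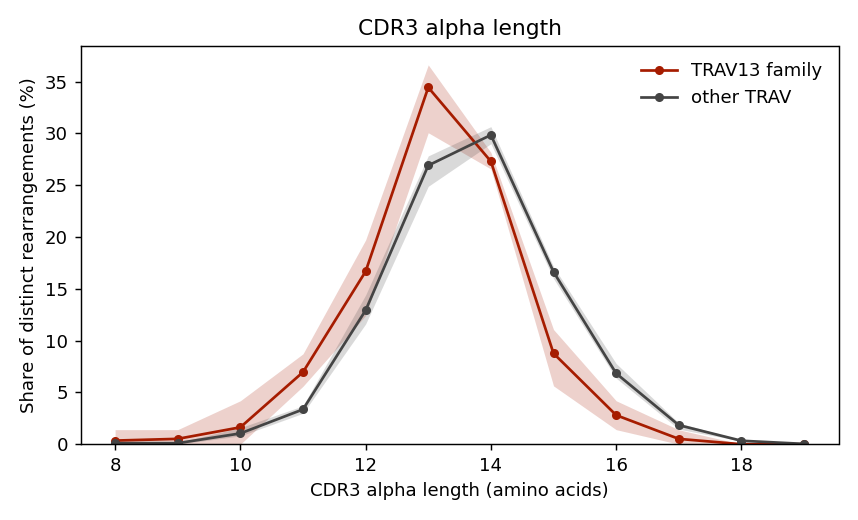
Share of distinct rearrangements (percent, vertical axis) by CDR3 alpha length (amino acids, horizontal axis). Lines are means and bands the range over 4 libraries, and the TRAV13 curve lies toward shorter lengths, with mean lengths of 13.00 to 13.24 against 13.65 to 13.71.

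Pairing with the beta chain was examined in 492 paired TRAV13 clonotypes, each an identical alpha and beta chain in cells with 1 TRB. By mean share over the 4 libraries TRBV5 was the most used partner, in 9.64%, 8.93%, 14.1% and 17.9% of the family's clonotypes, against 9.10% to 10.6% of other clonotypes. Within libraries TRBV19 led in NOD 1 (11.6%), TRBV29 in NOD 2 (9.82%) and TRBV13-1 was level with TRBV5 in Tet2KO NOD 1. By mean share TRBV13-1 (9.85%), TRBV19 (7.57%) and the joined name TRBV12-2+TRBV13-2 (7.27%) followed. The last was lower with TRAV13 than with other TRAV in 4 of 4 libraries, at 8.43%, 5.36%, 7.81% and 7.46% against 12.2%, 11.01%, 12.9% and 10.6%. Its log2 fold change was -0.65 (SE 0.25, unadjusted p = 0.0120, adjusted p = 0.383 by edgeR), so it did not pass. TRBJ2-7 (mean 20.9%), TRBJ2-5 (11.7%) and TRBJ2-1 (11.3%) were the most used TRBJ. Of 32 TRBV and TRBJ tested, 0 were called (0%), with 2 at an unadjusted p under 0.05 by edgeR and 1 by DESeq2. For the interaction with genotype 0 passed (smallest adjusted p = 0.512 by edgeR, 1 at an unadjusted p under 0.05).

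TRAV13-3 joined to TRAJ50 is the alpha chain described for V alpha 10 NKT cells of mice, a type of lipid-reactive T cell. That chain is often paired with a TRBV13 beta chain. No chain here was named TRAV13-3, which is annotated as a pseudogene in GRCm38, so TRAJ50 was counted with any TRAV13 segment. The name alone does not show that TRAV13-3-like chains were absent. The recurrent TRAV13N-3 sequence was equally close to GRCm38 TRAV13-3 and TRAV13N-3, at 5 bases. For the 5 rearrangements named TRAV13D-3, no GRCm38 segment was closer than TRAV13-3, at 4 bases. TRAJ50 was found in 12, 6, 2 and 3 TRAV13 rearrangements of the 4 libraries, or 4.03%, 4.20%, 2.63% and 4.23% of the family. In the other TRA it made up 2.70%, 3.44%, 2.06% and 2.25%, lower than in the family in 4 of 4 libraries (log2 fold change 0.51, SE 0.21, adjusted p = 0.397 by edgeR). The TRAV of these 23 rearrangements was TRAV13-1 in 13, TRAV13N-2 in 5, TRAV13-2 in 4 and TRAV13D-3 in 1, with 0 for TRAV13N-3. Of their 18 paired clonotypes, 7 had a beta chain whose name includes TRBV13, and 3 held more than 1 cell. Such a beta chain was found in 122 of all 492 TRAV13 clonotypes (24.8%) and in 28.4% of other clonotypes, and the 7 of 18 was not tested against these. No gene expression was used here, so these cells are described by their rearrangement alone and were not identified as NKT cells.

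Most TRAV13 clonotypes were seen in 1 cell. Clonotypes of 2 or more cells made up 13.3%, 11.6%, 12.5% and 13.4% of the family in the 4 libraries, against 13.5%, 13.3%, 19.4% and 14.9% of other clonotypes. The family value was the lower one in 4 of 4 libraries, by 2.58 percentage points on average, within an SD of 2.95 (mean difference -2.58, n = 4, exact two-sided sign-flip permutation p = 0.125, the smallest possible). The gap was largest in Tet2KO NOD 1 and came to -1.14 points without it. Among the 14 families of at least 100 rearrangements the mean expanded share of 12.7% ranked 10, the others lying between 9.03% and 19.8%. With clonotypes of 3 or more cells the family was lower in 2 of 4 libraries. By segment, 45 of 304 TRAV13-1 clonotypes (14.8%), 9 of 103 TRAV13-2 clonotypes (8.74%), 4 of 53 TRAV13N-2 clonotypes (7.55%) and 4 of 16 TRAV13N-3 clonotypes (25.0%) held more than 1 cell, as did 1 of 11 for TRAV13N-4 and 0 of 5 for TRAV13D-3.

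**Figure D5:**
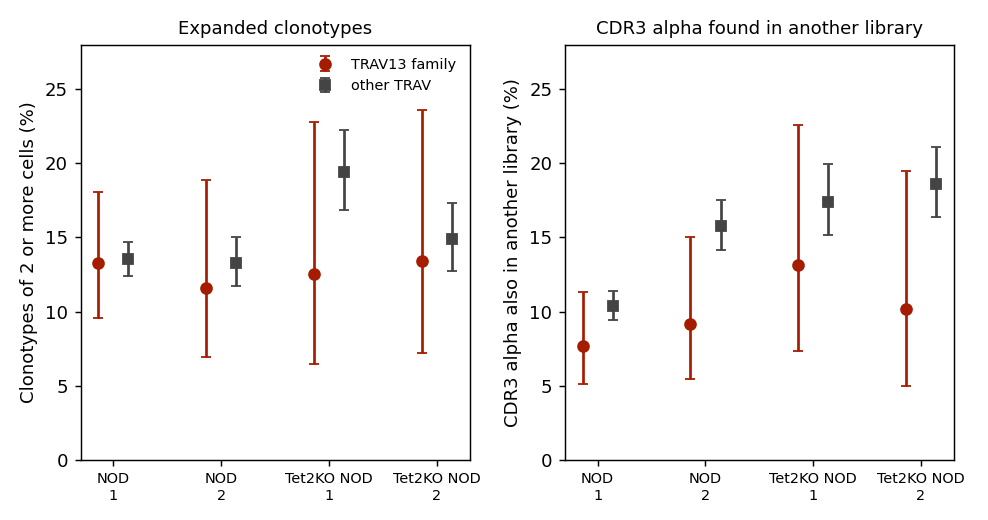
Left, share of paired clonotypes with 2 or more cells; right, share of CDR3 alpha amino acid sequences also found in another library (percent, vertical axes), for the TRAV13 family (circles) and other TRAV (squares) in each library. Bars are Wilson 95% intervals for counting error only, and the family lies below the others in all 4 libraries of both panels, with intervals that overlap in every library of both panels.

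The largest TRAV13 clonotype had a different TRAJ and TRBV in each library, and TRAV13-2 form A in 2 of the 4. In NOD 1 it held 28 cells (0.503% of paired cells) and joined TRAV13N-3 to TRAJ47, CDR3 alpha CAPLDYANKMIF, with TRBV19 and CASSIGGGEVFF. Its alpha chain was in 35 called cells when any TRB was allowed. In NOD 2 it held 24 cells (0.970%), TRAV13-2 form A with TRAJ49, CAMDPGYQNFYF, and TRBV17 with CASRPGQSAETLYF. In Tet2KO NOD 1 it held 8 cells (0.499%), TRAV13-1 form A with TRAJ57, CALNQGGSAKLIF, and TRBV15 with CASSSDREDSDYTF. In Tet2KO NOD 2 it held 14 cells (1.01%), TRAV13-2 form A with TRAJ37, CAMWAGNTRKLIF, and TRBV2 with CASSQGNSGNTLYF.

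Near-identical paired receptors recurred between pools of different mice. Clonotypes were grouped, by a rule set after the values were seen, when they shared TRAV family, TRAJ, TRBV and TRBJ, had CDR3 of equal length and differed at no more than 3 CDR3 residues over both chains. The rule gave 10 groups with 23 of the 492 TRAV13 clonotypes, and 7 groups spanned more than 1 library. The group with the most cells among these joined the leading clonotype of Tet2KO NOD 1 (8 cells) to the second largest of Tet2KO NOD 2 (6 cells, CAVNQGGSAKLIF with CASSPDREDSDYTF). The chains of these 2 clonotypes differed at 1 residue in alpha and 1 in beta, and at 2 and 4 bases. Their CDR3 sequences are shown because nearly the same protein was read from different bases in pools of different mice, with the bases that differ in capitals.
Tet2KO NOD 1 alpha: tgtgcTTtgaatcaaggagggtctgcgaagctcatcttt
Tet2KO NOD 2 alpha: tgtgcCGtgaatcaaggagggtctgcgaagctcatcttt
Tet2KO NOD 1 beta: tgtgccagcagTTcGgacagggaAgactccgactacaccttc
Tet2KO NOD 2 beta: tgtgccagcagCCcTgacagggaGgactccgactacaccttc

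The beta CDR3 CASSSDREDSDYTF also occurred in 1 clonotype outside the family, with TRAV2 and TRAJ31. A further group paired TRAV13-1 and TRAJ49 with TRBV3 and the beta CDR3 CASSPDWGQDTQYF in NOD 1 (2 clonotypes) and NOD 2 (1 clonotype). CDR3 alpha was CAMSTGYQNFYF in a NOD 1 and the NOD 2 clonotype, read from different codons, and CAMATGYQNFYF in the second NOD 1 clonotype. The bases that differ are again in capitals.
NOD 1 alpha: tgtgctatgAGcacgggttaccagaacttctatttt
NOD 1 second alpha: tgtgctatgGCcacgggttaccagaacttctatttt
NOD 2 alpha: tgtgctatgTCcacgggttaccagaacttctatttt
Another group paired TRAV13-1, TRAJ39 and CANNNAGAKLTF with TRBV19 in NOD 1 (5 cells) and Tet2KO NOD 2 (1 cell). In 1 of the 7 groups, TRAV13-1 and TRAJ13 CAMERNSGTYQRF with TRBV13-3 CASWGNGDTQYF, both chains were identical in all bases between NOD 1 (5 cells) and Tet2KO NOD 1 (1 cell).

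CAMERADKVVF, with TRAV13-1 and TRAJ34, was picked after the values were seen. It occurred with TRBV15 in both genotypes, but with beta chains that differed in TRBJ and CDR3. How often a shared CDR3 alpha meets the same TRBV was not counted. It held 15 cells in NOD 1, with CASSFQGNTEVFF and TRBJ1-1, and 5 cells in Tet2KO NOD 1, with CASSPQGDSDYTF and TRBJ1-2. The NOD 1 chain was of form B and the Tet2KO NOD 1 chain of form A. A clonotype of 1 cell in NOD 1, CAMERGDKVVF with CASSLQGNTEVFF, fell in the same group as the larger NOD 1 clonotype, from which it differed at 1 base in each chain.

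A smaller share of TRAV13 CDR3 sequences than of the other families' pooled sequences was found in more than 1 library. Of the distinct CDR3 alpha amino acid sequences, 7.67%, 9.15%, 13.2% and 10.1% of the family's in the 4 libraries also occurred with a TRAV13 segment in another library. For other TRAV families, each matched within its own family, the shares were 10.3%, 15.8%, 17.4% and 18.6%. The difference was -5.51 ± 2.56 percentage points (mean ± SD, n = 4, exact two-sided sign-flip permutation p = 0.125, the smallest possible), negative in 4 of 4 libraries. Families differ in size, and whether size bears on this share was not tested. Among 14 families the TRAV13 share ranked 13, highest first, with the others between 9.68% and 26.6%. Near-identical paired receptors in another library were found for 3.21%, 3.57%, 3.125% and 4.48% of TRAV13 clonotypes and 4.16%, 5.95%, 6.71% and 9.83% of the others. The TRAV13 values rest on only 8, 4, 2 and 3 clonotypes, and this difference was not tested. Among the same 14 families the mean share of 3.60% ranked 11, the others lying between 2.19% and 15.6%.

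The TRAV13 CDR3 alpha found in most libraries were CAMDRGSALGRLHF (TRAJ18) and a sequence of 15 residues with TRAJ57, each in 3 libraries. The first was read from TRAV13-1 and TRAV13N-2 chains in 4 rearrangements and 2 nucleotide sequences. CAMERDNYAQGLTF (TRAJ26) and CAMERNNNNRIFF (TRAJ31) had 3 rearrangements in 2 libraries. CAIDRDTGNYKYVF (TRAJ40) had 2 rearrangements, in NOD 1 and NOD 2, and was taken by alphabetical order from many sequences with the same counts. In all, 23 TRAV13 CDR3 sequences occurred in 2 libraries, 2 in 3 and 0 in 4, against 522 in 1. Identical nucleotides in more than 1 library were seen for 10 of 578 distinct TRAV13 rearrangements and 226 of 7491 others.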

How the data were processed

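Single-cell T-cell receptor libraries of pooled pancreatic islets from 2 NOD and 2 Tet2KO NOD pools were analysed. The deposited values are whole-number counts of reads and UMIs per assembled contig, per the file headers. Contigs, cell calls and clonotype numbers were made by the authors with Cell Ranger 7.0.1, per the submitters' processing notes, which name GRCm38 (mm10); which V(D)J reference was used is not given there. Segment names are the closest match in that reference, so NOD alleles and near-identical copies may be named wrongly.

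Chains were high-confidence, full-length, productive contigs of called cells. Paired cells had 1 TRB (cells with more were left out as possible doublets) and the TRA of most UMIs; no doublet caller was run. Of the 853 cells with a TRAV13 chain, 703 entered the paired analysis by that chain. Counts of rearrangements or clonotypes per segment were tested with edgeR 4.0.16 (quasi-likelihood, R 4.3.3), library size the number of rearrangements, Benjamini-Hochberg over all segments kept: at least 10 in 2 libraries between genotypes, at least 50 in all for partners, with library as a block, and at least 20 for TRAJ within the family. Standard errors were the fold change over the root of F. Single values used exact permutation over the 6 assignments of libraries or over the 16 sign patterns. With 2 pools a genotype, whose separate mice are not told apart, p-values between genotypes draw on the spread between pools. Those for the family against other TRAV compare both parts within libraries. In the main partner and within-family TRAJ fits the common dispersion was 9.77e-05, so little spread beyond counting error enters through it. V sequences were taken from the framework and CDR columns of the contigs. They were aligned to the alpha chain locus of GRCm38.p6 and to all its annotated TRAV genes, and germline CDR3 ends came from the same genome. Alternatives (DESeq2 1.42.0, TMM, no filter, chains of at least 3 UMIs, cells or paired clonotypes counted, shared receptors removed, each library left out) are given in the closing section. Intervals are Wilson 95% intervals and a 0 was taken to allow 3 counts; both cover counting error only.

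Named segments and receptors followed a rule: every member; partners passing the test; the 6 TRAJ, 4 TRBV and 3 TRBJ of highest mean share; TRAJ50; the 3 higher and 3 lower TRAJ between genotypes; the largest clonotype per library; the 5 CDR3 alpha in most libraries; and the 2 families of most similar TRAJ use. The members, lists and rules were chosen with earlier results of these data known. The near-identical groups, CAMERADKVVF and the TRAJ named after their values were seen lie outside the naming rule.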

Additional observations from a re-analysis of the deposited data

Results flagged for a closer look

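Signals appeared in TRAV13 contigs that the comparisons do not use. In called cells, 396 high-confidence, full-length TRAV13 contigs were nonproductive, 203 in NOD 1, 108 in NOD 2, 41 in Tet2KO NOD 1 and 44 in Tet2KO NOD 2. They made up 30.3%, 36.5%, 29.3% and 27.5% of the full-length TRAV13 contigs of called cells, against 17.2% to 18.9% of other TRA contigs. By segment the nonproductive share was 20.4% for TRAV13-1, 39.8% for TRAV13-2, 30.2% for TRAV13N-2, 50.0% for TRAV13N-3, 54.1% for TRAV13N-4 and 75.0% (15 of 20) for TRAV13D-3. These shares count contigs in cells and not distinct rearrangements, so expanded clones weigh in them. For TRAV13N-3, 1 productive rearrangement of NOD 1 was in 35 cells. As a mean of 4 libraries, the family's 30.9% ranked 1 of 14 TRAV families, the others lying between 5.77% and 28.4%.

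On barcodes not called as cells, 405 TRAV13 contigs of any kind were found, 172, 82, 54 and 97 in the 4 libraries. TRAV13D-1 (3 contigs) and TRAV13N-1 (2 contigs) had no high-confidence, full-length contig in called cells.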

How the results depend on the processing

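With 2 pools a genotype and 4 libraries in all, no permutation p could pass 0.05, so direction is all that can hold. The genotype difference in family share (-0.40 points) turned to 0.16 with paired clonotypes and lay between -0.90 and 0.0971 with any 1 library left out. The shorter CDR3 (-1 to -0.47 amino acids), lower expanded share (-3.35 to -1.14 points) and lower cross-library share (-7.25 to -3.92 points) kept their sign in all alternatives run, 9, 7 and 6 of them; by the deposited clonotype numbers the expanded share was lower in 3 of 4 libraries. Leaving out each library gave 0 to 1 calls among TRAJ partners of the family against other TRAV, TRAJ24 without Tet2KO NOD 1 (log2 fold change 1.93); its adjusted p over all alternatives ran from 0.0448 to 0.511 by edgeR or DESeq2. No TRAV13 segment, TRB partner or within-family TRAJ was called in any alternative. Set numbers taken as a replicate block left TRAV13 segments and within-family TRAJ at 0 calls each (smallest adjusted p over all segments 0.162 and over within-family TRAJ 0.715 by edgeR), but the labels do not say what a set shares, and over 128 segments the difference NOD 1 minus NOD 2 correlated at r = -0.10 with Tet2KO NOD 1 minus Tet2KO NOD 2. With the sets crossed, a setting added after the data were seen, the counts were also 0 and 0. The fold changes of TRAV13-1 stayed negative (-0.21 to -0.06), while TRAV13-2 (-0.83 to 0.28) and TRAV13N-2 (-0.45 to 0.70) crossed 0. The form A minus form B difference in upstream TRAJ ran from 26.8 to 38.2 points over 6 alternatives chosen after the data were seen. Rearrangements per library (71 to 298 for the family) limit rare members and forms.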

Other observations

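TRAV13 cells often carried a further productive alpha chain. Of the 853 cells, 212 had 2 or more TRA chains, and in 17 of these more than 1 was of the TRAV13 family. The share of TRAV13 cells with more than 1 TRA was 26.2%, 24.9%, 21.6% and 22.4% in the 4 libraries. Cells with 2 chains enter the count of either family, so other families are the proper reference: as a mean of 4 libraries the TRAV13 value was 23.8%, which ranked 2 of 14 families, the others lying between 13.7% and 27.8%. A TRB was missing in 29 of the 853 cells, and 64 had more than 1.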
